A study of Mus musculus with 10 samples.

Results

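Pck1, G6pc, Pcx, Pgam1 and Slc2a2 are 5 genes of glucose production and glucose handling in liver, and their transcripts are described here over 5 pools of mouse liver RNA. They were chosen by name, with earlier results of these data known, so the counts of calls among them are descriptive. The probe sets used are those that the platform annotation gives to each gene alone. Each gene was read from the brightest of them, by the mean of the 10 arrays. The members are 5 of 8252 genes measured, all protein-coding. Pcx has 6 such probe sets and the other genes 1 each.

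Gluconeogenesis makes glucose from lactate, amino acids and glycerol, and in the fasted state the liver supplies most of the glucose in blood. Pyruvate carboxylase, encoded by Pcx, turns pyruvate into oxaloacetate, and the cytosolic phosphoenolpyruvate carboxykinase, encoded by Pck1, turns oxaloacetate into phosphoenolpyruvate. Phosphoglycerate mutase, encoded by Pgam1, works in both directions, in gluconeogenesis and in glycolysis. G6pc encodes the catalytic subunit of glucose-6-phosphatase, which releases free glucose, and Slc2a2 encodes GLUT2, the glucose transporter of the hepatocyte surface. Glucagon, cyclic AMP and glucocorticoids are known to raise Pck1 and G6pc, and insulin lowers them.

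The study used male mice only. TgSREBP-1a and TgSREBP-2 mice overexpressed the active nuclear form of human SREBP-1a or SREBP-2, transcription factors of fatty acid and cholesterol synthesis. They and the wild type littermates that served as their controls were 12 to 16 weeks old and had eaten for 2 weeks a diet labelled high protein/low carbohydrate. Per the labels, it was chosen to drive strong expression of the transgenes. The labels do not name the transgene promoter. Lines of these names are known from the literature to carry the rat Pck1 (PEPCK) promoter. Scap-/- mice (Scap-/-;MX1-Cre) lacked SCAP in liver, a protein that carries SREBPs to the site of their cleavage. The MX1 promoter answers to interferon and is known to be active in other cells besides hepatocytes. The knockout mice and the wild type mice set against them were aged 10 to 12 weeks, ate Teklad chow, and all had 4 injections of polyinosinic-polycytidylic acid, with livers taken 14 days after the last. The wild type pools are called high-protein wild type and chow-fed wild type below.

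Each group is 1 pool of liver RNA from 5 mice, measured on 2 arrays. The error behind every p-value below is therefore that between hybridisations, and the tests compare pools. They hold no error between mice, and precision is limited by the number of arrays. In pooled liver RNA, fewer cells of a type and less RNA per cell cannot be told apart.

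Duplicate arrays correlated at 0.9922 to 0.9978 over genes. They were least alike in the high-protein set, where 55 to 150 genes were at least 1.5-fold apart between duplicates, against 0 to 6 in the chow set. Of 7 hepatocyte markers 5 were measured, and their summed linear signal was 35016 to 35662 in TgSREBP-1a and 38408 to 40400 over the other 8 arrays. Albumin stood between 13.48 and 13.85 log2 in all pools and was highest in TgSREBP-1a, at 13.85 and 13.84. Transcripts of exocrine pancreas were also present. The summed linear signal of 7 such markers was 1307 to 1350 in TgSREBP-1a, 21692 to 22090 in TgSREBP-2 and 16164 to 16247 in high-protein wild type. In the chow set it came to 1803 to 1874 for Scap-/- and 7999 to 8200 for wild type. Scap and Srebf2 were not analysed here, since the annotation gives neither gene a probe set alone, so the targeted gene could not be used to check the genotype labels.

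The sequences before the transcription starts are shown so that the letters before Pck1, G6pc and Pcx, which were lower together in 1 pool, can be set beside those before Pgam1 and Slc2a2. They are from RefSeq on GRCm38.p6, 250 bases up to the base before the annotated start, read 5′ to 3′ on the strand of the gene, which is the plus strand for all. All 5 genes were found in the RefSeq table, Pcx with 2 starts. Capitals mark matches on either strand to CACGTG (E-box), TGACGTCA or TTACGTCA (cyclic AMP response element, CRE), TGTTTTG or TGTTTAC (FOXO), CCAAT (NF-Y) and TCACCCCAC or TCACNCCAC (sterol regulatory element, SRE). The 2 SRE forms overlap, since every match of the first is a match of the second.
Pck1, chr2:173152823-173153072: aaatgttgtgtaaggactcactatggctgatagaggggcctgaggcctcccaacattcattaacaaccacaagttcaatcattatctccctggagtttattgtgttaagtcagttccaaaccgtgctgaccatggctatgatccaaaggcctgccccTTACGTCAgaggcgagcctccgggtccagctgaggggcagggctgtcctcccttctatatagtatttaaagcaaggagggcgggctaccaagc
G6pc, chr11:101367466-101367715: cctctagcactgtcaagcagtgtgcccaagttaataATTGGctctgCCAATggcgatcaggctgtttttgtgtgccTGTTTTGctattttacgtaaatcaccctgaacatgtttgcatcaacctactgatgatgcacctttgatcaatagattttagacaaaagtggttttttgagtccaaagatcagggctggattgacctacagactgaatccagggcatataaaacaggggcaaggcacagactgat
Pcx, upstream start, chr19:4510222-4510471: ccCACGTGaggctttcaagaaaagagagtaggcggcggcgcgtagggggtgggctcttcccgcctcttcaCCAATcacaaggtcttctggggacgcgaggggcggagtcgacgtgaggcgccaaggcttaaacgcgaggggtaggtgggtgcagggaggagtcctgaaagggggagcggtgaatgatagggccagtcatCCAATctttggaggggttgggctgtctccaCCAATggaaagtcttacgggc
Pcx, downstream start, chr19:4594069-4594318: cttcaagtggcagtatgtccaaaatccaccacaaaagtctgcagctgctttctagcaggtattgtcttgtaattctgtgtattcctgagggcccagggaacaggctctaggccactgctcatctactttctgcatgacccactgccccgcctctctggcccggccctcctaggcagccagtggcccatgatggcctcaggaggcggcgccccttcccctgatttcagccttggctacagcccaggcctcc
Pgam1, chr19:41911621-41911870: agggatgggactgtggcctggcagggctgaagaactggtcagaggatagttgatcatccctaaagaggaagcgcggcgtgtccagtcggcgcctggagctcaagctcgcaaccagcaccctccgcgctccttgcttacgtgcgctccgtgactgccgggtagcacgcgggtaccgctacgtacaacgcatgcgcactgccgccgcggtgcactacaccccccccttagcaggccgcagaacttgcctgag
Slc2a2, chr3:28697653-28697902: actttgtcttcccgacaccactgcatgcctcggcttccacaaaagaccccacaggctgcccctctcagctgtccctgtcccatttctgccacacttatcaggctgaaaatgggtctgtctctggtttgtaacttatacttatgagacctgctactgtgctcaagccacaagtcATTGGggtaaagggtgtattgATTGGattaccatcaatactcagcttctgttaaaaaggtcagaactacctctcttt

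In the Pck1 window the CRE letters TTACGTCA began 93 bases before the start, and 0.447% of 32851 windows of the same length hold them. A CRE at about this place is known from the Pck1 promoter of the rat. The G6pc window held the FOXO letters TGTTTTG 174 bases before the start, which 5.56% of windows hold, and CCAAT on both strands, 204 and 214 bases before it. The upstream Pcx window held CACGTG 248 bases before the start, which 6.02% of windows hold, and 3 CCAAT boxes. The Slc2a2 window held 2 CCAAT boxes on the opposite strand, and 33.85% of windows hold that motif at least once. The letters of the SRE were in none of these 6 windows. TCACCCCAC occurs in 0.496% of windows and TCACNCCAC in 1.05%. Neither TGACGTCA, which 1.55% of windows hold, nor TGTTTAC, which 3.17% hold, was in any of the 6, and the downstream Pcx window and the Pgam1 window held no match to any letters searched. A match is a description of the letters and not of a bound site.

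In TgSREBP-1a livers Pck1, G6pc and Pcx were lower than in high-protein wild type, Pgam1 was higher, and Slc2a2 did not pass the test. To be called, a gene needed a 1.5-fold difference or more and, in a limma fit of all 10 arrays, a Benjamini-Hochberg adjusted p below 0.05 over 8252 genes. Of the 5 genes 3 were called lower and 1 higher. Over all genes 7.37% were called, 2.59% lower and 4.77% higher. The members' median log2 difference was -0.62, against -0.03 over all genes.

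**Figure D1:**
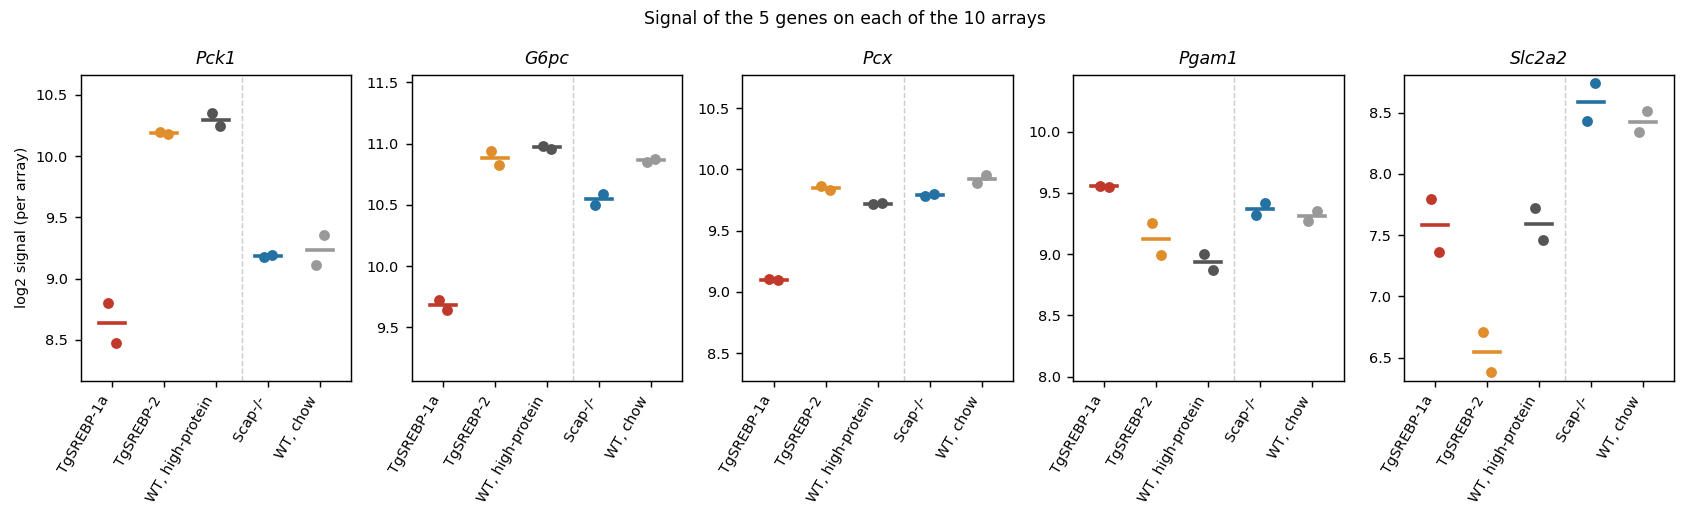
Log2 signal (vertical axes, each spanning the same range) of the 5 genes on each array, with points for the 2 arrays of a pool and a bar for their mean. The dashed line parts the high-protein set from the chow set. Pck1, G6pc and Pcx are lowest in TgSREBP-1a, and Slc2a2 is lowest in TgSREBP-2.

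Pck1 (probe set 160481_at, chr2:173153073-173159274 on GRCm38.p6) had log2 signals of 8.80 and 8.48 in TgSREBP-1a, against 10.35 and 10.24 in high-protein wild type. Both TgSREBP-1a arrays lay below all other 8 arrays. The difference was -1.66 ± 0.12 log2 (moderated SE of the limma fit, n = 2 arrays per pool here and throughout), or 3.16-fold lower, with an adjusted p = 4.16e-06. By size it ranked 103 of 8252 genes and 40 among those that were lower.

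G6pc (103333_at, chr11:101367716-101377903) stood at 9.73 and 9.65 in TgSREBP-1a and at 10.98 and 10.96 in high-protein wild type. It fell by 1.28 ± 0.08 log2, or 2.44-fold (adjusted p = 1.58e-06, limma). Its duplicates were no more than 0.12 apart in any pool, so both TgSREBP-1a arrays were clear of every other array.

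Pcx (chr19:4510472-4621752) was read from a control probe set of the manufacturer that covers the 3′ part of its transcript, since that is the brightest of the 6. It stood at 9.10 and 9.10 in TgSREBP-1a, against 9.71 and 9.72 in high-protein wild type. The difference was -0.62 ± 0.07 log2, or 1.54-fold lower (adjusted p = 0.000172, limma), just past the 1.5-fold limit.

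The size of the Pcx difference depended on the probe set. The brightest ordinary probe set, 93308_s_at, had 7.62 and 7.59 in TgSREBP-1a and 8.41 and 8.45 in high-protein wild type, a difference of -0.82 ± 0.07 (adjusted p = 2.58e-05, limma over all probe sets). The control probe set for the middle part named MB gave -0.55 ± 0.09, under 1.5-fold (adjusted p = 0.00142). The probe sets for the middle part MA and the 5′ part gave -0.13 ± 0.08 and -0.19 ± 0.08, with adjusted p = 0.349 and 0.162. The dim probe set 162288_f_at gave -0.23 ± 0.09 (adjusted p = 0.126). All 6 were thus lower in the TgSREBP-1a pool, and 2 were called.

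The 3′ and 5′ control probe sets also give a measure of how evenly a transcript was labelled along its length. For Pcx the 3′ signal exceeded the 5′ signal by 1.49 and 1.36 log2 in TgSREBP-1a and by 1.87 and 1.83 in high-protein wild type. The same measure was 0.89 and 0.89 against 0.98 and 1.01 for Actb, 0.98 and 1.02 against 1.15 and 1.12 for Tfrc, and 0.70 and 0.69 against 0.82 and 0.72 for Gapdh. It was lower in the TgSREBP-1a pool for all 4 transcripts, though for Pcx it holds the same 3′ value as the result above. In TgSREBP-2 the means were 2.09 for Pcx, 1.17 for Actb, 1.29 for Tfrc and 0.76 for Gapdh. Those of high-protein wild type were 1.85, 0.99, 1.13 and 0.77. The part of this measure in the results for Pcx and the other members was not tested in any comparison.

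**Figure D2:**
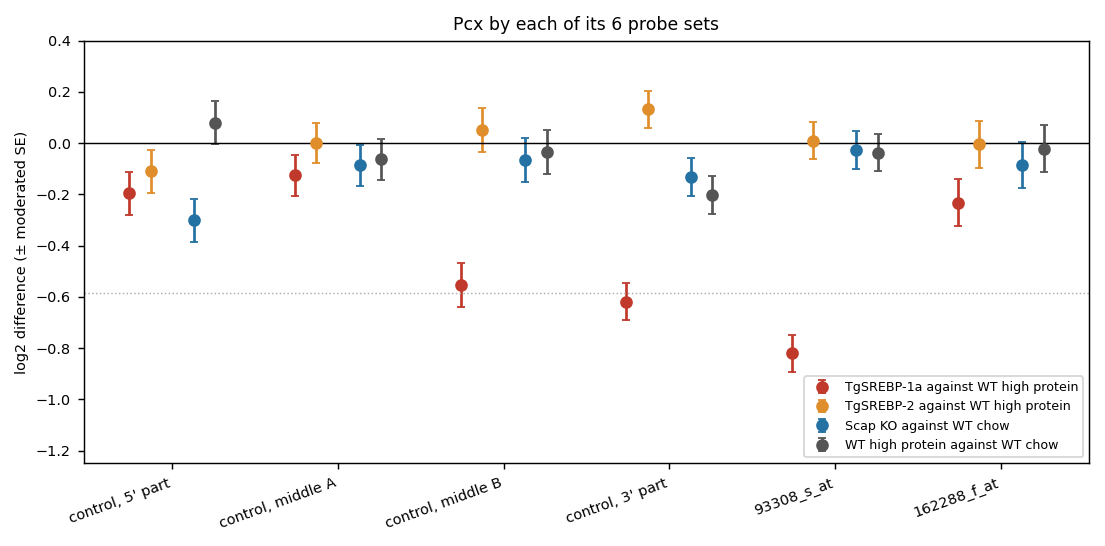
Log2 difference of Pcx (vertical axis, ± moderated SE) by each of its 6 probe sets (horizontal axis) in 4 comparisons. The dotted line marks 1.5-fold lower. The TgSREBP-1a difference is -0.82 by 93308_s_at and -0.13 by the control probe set for middle part A.

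Pgam1 (160091_at, chr19:41911871-41918665) had 9.56 and 9.55 in TgSREBP-1a, against 9.00 and 8.87 in high-protein wild type. It rose by 0.61 ± 0.10 log2, or 1.53-fold (adjusted p = 0.00179, limma). Both TgSREBP-1a arrays were the highest of all 10. The call was lost at 0.55 without replicate 2 of high-protein wild type or when the arrays were quantile normalized again, and at 0.58 with an offset of 32 added.

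Slc2a2 (103357_at, chr3:28697903-28728361) had 7.79 and 7.37 in TgSREBP-1a and 7.72 and 7.46 in high-protein wild type, so the pools overlapped. The difference was -0.01 ± 0.17 log2 (adjusted p = 0.972, limma). Its sign turned when replicate 2 of TgSREBP-1a (0.20) or replicate 1 of wild type (0.12) was left out. Replicate 1 was the higher array in both pools. With the replicate number added to the fit as a block within each set, the difference was -0.01 ± 0.07.

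Markers of cell types, hepatocytes among them, also differed in the TgSREBP-1a pool. Of 10 measured macrophage markers 5 were higher and 0 lower, and their summed signal was 4440 to 4664, against 2760 to 2767 in high-protein wild type. Of 7 endothelial markers 2 were higher. Of 5 measured hepatocyte markers Ttr, the thyroid hormone carrier transthyretin, and Tdo2, which degrades tryptophan, were called lower, and none was called higher. Albumin (Alb) went the other way, at 0.27 ± 0.08 (adjusted p = 0.0363, limma). Apoa1 stood at -0.28 ± 0.07 and Hpx at -0.19 ± 0.07, and all of these were under 1.5-fold. All 7 exocrine pancreas markers were lower, and 0 of 7 endocrine pancreas markers were called by limma, with 0 at an unadjusted p under 0.05. Of 5 adipocyte markers 1, Car3, was lower. Adipoq (-0.19), Fabp4 (0.24), Lep (-0.23) and Retn (-0.28) were not called. In high-protein wild type Car3 had 10.27 and 10.13 log2, against 4.43 and 4.36 for Adipoq. Car3 alone cannot show whether adipocyte RNA differed. Of 8 lymphocyte markers 1, Ighm, was higher, and of 2 red cell markers Hba-a1 was higher and Alas2 lower. The part of these differences in the results for Pck1, G6pc, Pcx and Pgam1 was not tested.

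In TgSREBP-2 livers, set against the same wild type pool, Slc2a2 was lower, and Pck1, G6pc, Pcx and Pgam1 did not pass the test. Of the 5 genes 1 was called lower and 0 higher, where 2.57% of all genes were called, 0.388% lower and 2.18% higher. The members' median was -0.09, against -0.02 over all genes.

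Slc2a2 had log2 signals of 6.71 and 6.38 in TgSREBP-2, against 7.72 and 7.46 in high-protein wild type. Both TgSREBP-2 arrays lay below the other 8. It fell by 1.04 ± 0.17 log2, or 2.06-fold (adjusted p = 0.00541, limma). By that measure it was the ninth lowest of all genes, and its call was kept in every alternative tried. Its duplicates were 0.26 to 0.43 apart in the 3 pools of the high-protein set, and array 1 was the higher each time. Islet beta cells of the pancreas are also known to express Slc2a2. The 7 endocrine markers summed to 739 to 834 in TgSREBP-2, against 788 to 897 in high-protein wild type. That sum cannot show whether islet RNA differed. Its brightest marker, Ins2, varied between the wild type duplicates (7.83, 8.56), while Gcg, Iapp and Pdx1 were dim, under 6 log2 on all 10 arrays. The part of islet RNA in the Slc2a2 result was not tested.

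Pck1 stood at 10.20 and 10.18 in TgSREBP-2, close below the 10.35 and 10.24 of high-protein wild type. The difference was -0.11 ± 0.12 log2 (adjusted p = 0.68, limma). G6pc had 10.94 and 10.82 in TgSREBP-2, against 10.98 and 10.96 in wild type, a difference of -0.09 ± 0.08 (adjusted p = 0.622). Both genes thus had transgenic arrays just under the wild type arrays, by less than the error of the fit or about as much.

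Pcx had 9.87 and 9.83 in TgSREBP-2, against 9.71 and 9.72 in high-protein wild type, a difference of 0.13 ± 0.07 (adjusted p = 0.393, limma). The 93308_s_at probe set gave 0.01 ± 0.07. Pgam1 had 9.26 and 8.99 in TgSREBP-2, against 9.00 and 8.87 in wild type, which overlapped, with a difference of 0.18 ± 0.10 (adjusted p = 0.392). Of 10 macrophage markers 3 were higher in this pool, and of 7 exocrine pancreas markers 2 were higher. Of 2 red cell markers Hba-a1 was higher.

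The 2 transgenic pools were set against each other to describe how the genes differed between them. Each SREBP isoform is 1 pool, so a difference between isoforms cannot be told apart from one between pools. Pck1, G6pc and Pcx were lower in TgSREBP-1a than in TgSREBP-2, and Slc2a2 was higher. Of the 5 genes 4 were called, 3 lower and 1 higher, where 5.19% of all genes were called, 2.94% lower and 2.24% higher.

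The difference was -1.55 ± 0.12 log2 for Pck1 (adjusted p = 8.91e-06, limma), or 2.93-fold lower in TgSREBP-1a. It was -1.19 ± 0.08 for G6pc (adjusted p = 3.98e-06), or 2.29-fold lower. For Pcx it was -0.75 ± 0.07 (adjusted p = 5.26e-05), and 3 of its 6 probe sets were called, at -0.60, -0.75 and -0.83. The other 3 ranged from -0.08 to -0.23. Slc2a2 was 2.05-fold higher in TgSREBP-1a, by 1.03 ± 0.17 (adjusted p = 0.00258). Pgam1 stood at 0.43 ± 0.10, with an adjusted p = 0.0185 but under 1.5-fold. Whether the nuclear SREBP protein was alike in the lines was not analysed here. Markers of cell types, hepatocytes among them, differed between the same pools. All 7 exocrine pancreas markers were lower in TgSREBP-1a, as were Ttr and Tdo2 of 5 hepatocyte markers, Car3 of 5 adipocyte markers and Alas2 of 2 red cell markers. The hepatocyte markers that were not called stood at 0.25 (Alb), -0.28 (Apoa1) and -0.41 (Hpx). The adipocyte markers that were not called stood at -0.01 (Adipoq), 0.31 (Fabp4), -0.15 (Lep) and -0.18 (Retn). Higher were Marco of 10 macrophage, Lyve1 of 7 endothelial, Col3a1 of 9 stellate cell and Ighm of 8 lymphocyte markers. Their part in the differences of Pck1, G6pc, Pcx and Slc2a2 was not tested.

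Loss of Scap left all 5 genes without a call. In the Scap-/- pool against chow-fed wild type, limma called 0 of the 5, where 1.65% of all genes were called, 0.727% higher and 0.921% lower. G6pc alone had an unadjusted p under 0.05 (0.00263). The members' median was -0.05, against 0 over all genes.

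G6pc had 10.50 and 10.59 in Scap-/-, against 10.85 and 10.88 in chow-fed wild type. Both knockout arrays were below both wild type arrays, with a difference of -0.32 ± 0.08 log2 and an adjusted p = 0.0811 in limma. Pck1 had 9.18 and 9.19 in Scap-/- and 9.11 and 9.36 in wild type, a difference of -0.05 ± 0.12. Its wild type arrays enclosed the knockout arrays.

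Pcx had 9.78 and 9.80 in Scap-/-, against 9.89 and 9.95 in chow-fed wild type, a difference of -0.13 ± 0.07 (adjusted p = 0.672, limma). Pgam1 had 9.32 and 9.41 in Scap-/- and 9.27 and 9.35 in wild type, or 0.06 ± 0.10. Slc2a2 had 8.43 and 8.74 in Scap-/- and 8.34 and 8.51 in wild type, or 0.16 ± 0.17. Pgam1 and Slc2a2 overlapped between the pools. All 7 exocrine pancreas markers were lower in the Scap-/- pool, as in TgSREBP-1a, and so was Ighm of 8 lymphocyte markers. Limma called 0 of 10 macrophage and 0 of 5 hepatocyte markers, with 2 and 1 at an unadjusted p under 0.05.

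**Figure D3:**
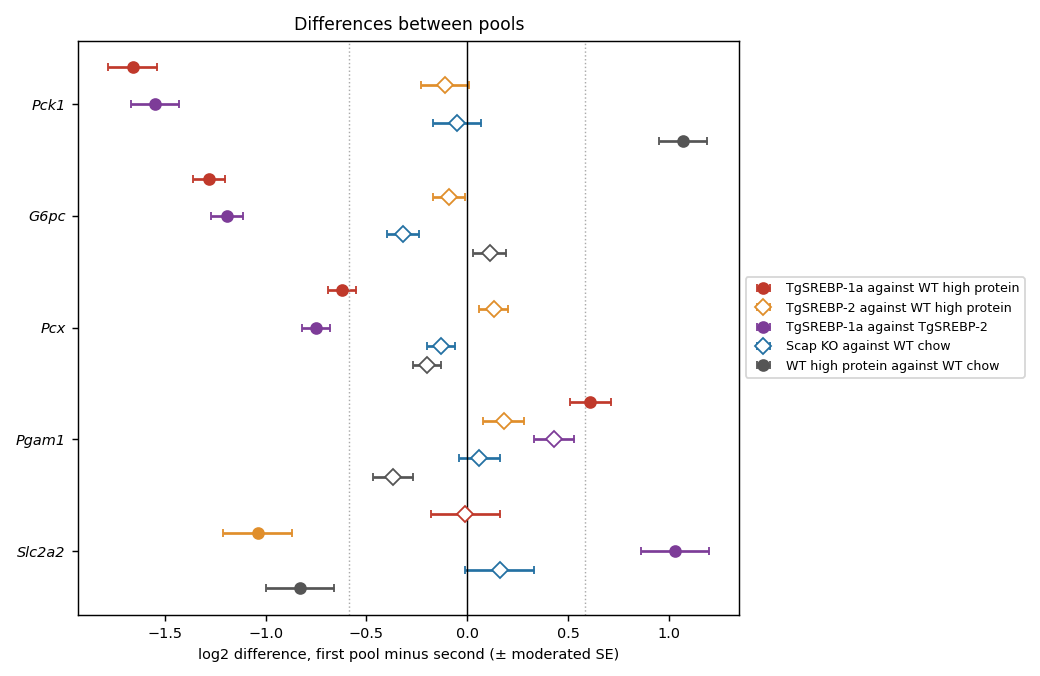
Log2 difference (horizontal axis, first-named pool minus second, ± moderated SE of limma) for each gene (vertical axis) in 5 comparisons. Filled circles passed the test, open diamonds did not, and dotted lines mark 1.5-fold. Pck1 and G6pc lie at -1.66 and -1.28 in TgSREBP-1a, and no Scap-/- value passed.

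The wild type pools were also compared with each other. Diet, age, injections and experimental set differed together between them and cannot be told apart. Pck1 was higher and Slc2a2 lower in high-protein wild type than in chow-fed wild type. Of the 5 genes 1 was called higher and 1 lower, where 5.63% of all genes were called, 1.28% higher and 4.35% lower.

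Pck1 had 10.35 and 10.24 in high-protein wild type, against 9.11 and 9.36 on chow. The difference was 1.07 ± 0.12 log2, or 2.09-fold higher (adjusted p = 0.000247, limma), and it ranked 31 among the genes that were higher. Slc2a2 had 7.72 and 7.46, against 8.34 and 8.51 on chow. Slc2a2 was thus 1.78-fold lower, at -0.83 ± 0.17 (adjusted p = 0.00775), and lost its call without replicate 2 of chow-fed wild type (-0.75, adjusted p = 0.0809). Pgam1 stood at -0.37 ± 0.10 (adjusted p = 0.0261), under 1.5-fold. Pcx and G6pc stood at -0.20 ± 0.07 and 0.11 ± 0.08, with adjusted p = 0.0671 and 0.357.

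Of 10 macrophage markers 4 were lower in high-protein wild type, and their summed signal was 2760 to 2767, against 4032 to 4294 in chow-fed wild type. Of 7 exocrine pancreas markers 6 were higher, and of 5 hepatocyte markers 1, Ttr, was lower. Ighm of 8 lymphocyte markers and Alas2 of 2 red cell markers were lower too. Their part in the differences of Pck1 and Slc2a2 was not tested.

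Over the 5 pools the order of Pck1 ran from high-protein wild type (mean 10.30 log2) through TgSREBP-2 (10.19), chow-fed wild type (9.23) and Scap-/- (9.18) to TgSREBP-1a (8.64). Its arrays overlapped only between the 2 chow-set pools. The TgSREBP-1a mean was thus below the means of the chow-fed pools as well as that of its own wild type.

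G6pc had the same order, at 10.97, 10.88, 10.86, 10.55 and 9.69. TgSREBP-2 and chow-fed wild type overlapped, and the first 3 pools lay within 0.11 of each other. Pcx had 9.92 in chow-fed wild type, 9.85 in TgSREBP-2, 9.79 in Scap-/-, 9.72 in high-protein wild type and 9.10 in TgSREBP-1a. That order holds for the 3′ control probe set alone. By 93308_s_at the 4 pools other than TgSREBP-1a lay between 8.41 and 8.47 on all 8 arrays. When the arrays were quantile normalized again, the 3′ probe set differed by 0 between TgSREBP-2 and its wild type and by -0.02 between the wild type pools.

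Pgam1 was highest in TgSREBP-1a (9.55), followed by Scap-/- (9.37), chow-fed wild type (9.31), TgSREBP-2 (9.12) and high-protein wild type (8.94). Scap-/- overlapped with chow-fed wild type, and TgSREBP-2 with high-protein wild type. Slc2a2 was highest in Scap-/- (8.59), then chow-fed wild type (8.43), high-protein wild type (7.59), TgSREBP-1a (7.58) and TgSREBP-2 (6.55). Scap-/- overlapped with chow-fed wild type, and high-protein wild type with TgSREBP-1a.

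The genes with group means most like each member were found by the root mean square difference between group means over the 5 pools, each gene centred on its own mean. For Pck1 they were Ppara (0.171 log2), Il1r1 (0.174) and Nnmt (0.186). For G6pc they were Slc25a25 (0.083), Cyp3a13 (0.118) and Cxcl12 (0.121). For Pcx they were Ggcx (0.036), Msrb1 (0.043) and Ndrg2 (0.049), and for Pgam1 Klhdc2 (0.026), Mkrn1 (0.031) and Cyrib (0.031). For Slc2a2 they were Ssr1 (0.274), Tpmt (0.311) and Cited2 (0.334). Smaller ranges over pools give smaller differences, so these values do not compare between members. The members were not among each other's nearest genes. G6pc was at rank 32 for Pck1 and Pck1 at rank 353 for G6pc (0.374 both ways). Pcx was at rank 34 for G6pc and G6pc at rank 696 for Pcx (0.228). Pcx was at rank 276 for Pck1 and Pck1 at rank 7848 for Pcx (0.522).

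**Figure D4:**
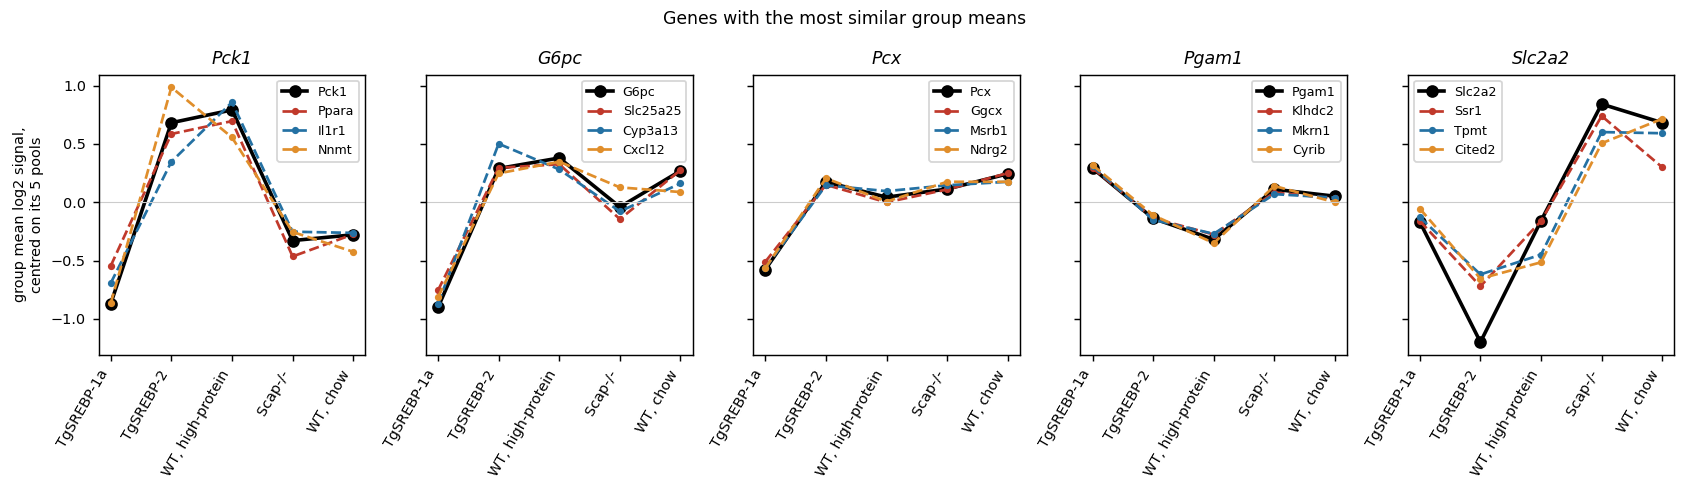
Group means of log2 signal, centred on the mean over the 5 pools (vertical axis), for each gene (black) and the 3 genes nearest to it (dashed). The dip of Slc2a2 in TgSREBP-2 is deeper than that of its nearest genes.

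The rest of the pathway was read from 5 lists with 81 measured genes, also chosen with earlier results of these data known. TgSREBP-1a had 8 of the 81 called higher and 5 lower, TgSREBP-2 had 2 and 1, and Scap-/- had 0 and 1, each against its wild type. That is 16.05%, 3.7% and 1.23% of the list, where 7.37%, 2.57% and 1.65% of all genes were called. The medians of the 81 were -0.04, 0 and -0.01 log2, near those of all genes. Between the wild type pools 4 were higher and 4 lower, with a median of 0.02. That is 9.88% of the list, where 5.63% of all genes were called. Between the transgenic pools 4 were higher in TgSREBP-1a (Pdk1, Cs, Igfbp1 and Tat) and 4 lower (Ldha, Cebpa, Gcgr and Ppara), with a median of -0.01. The share was 9.88% of the list, where 5.19% of all genes were called. Of these 8 calls 3 were lost under another setting: Cebpa when quantile normalized again (-0.54), Gcgr without replicate 1 of TgSREBP-1a (-0.58) and Igfbp1 with the mean of its probe sets (0.44).

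Glycolysis and gluconeogenesis had 24 measured genes besides the members. In TgSREBP-1a 2 rose and 2 fell. Aldoc, an aldolase, had log2 signals of 8.56 and 8.51 in TgSREBP-1a and of 8.93 and 8.98 in TgSREBP-2, against 7.25 and 7.34 in high-protein wild type. All 4 transgenic arrays were above both wild type arrays, and it rose by 1.23 ± 0.10 with SREBP-1a (adjusted p = 1.53e-05, limma) and by 1.66 ± 0.10 with SREBP-2. Scap-/- arrays read 6.99 and 6.68, against 7.67 and 7.56 for chow-fed wild type. There Aldoc was the only gene of the list called, at -0.78 ± 0.10.

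Tpi1, triose phosphate isomerase, rose by 0.70 ± 0.11 in both transgenic pools, in TgSREBP-2 by under 1.5-fold without replicate 1 of TgSREBP-2 (0.56) and when quantile normalized again (0.50). Between the wild type pools Tpi1 was lower in high-protein wild type, at -0.72 ± 0.11, as was Gpd2, a mitochondrial partner of Gpd1, at -0.78 ± 0.11. Gpd2 fell short of 1.5-fold with an offset of 32 added (-0.58). Ldha, which interconverts lactate and pyruvate, fell by 0.99 ± 0.11 in TgSREBP-1a (adjusted p = 0.000132, limma) and stood at -0.10 in TgSREBP-2. Between the transgenic pools Ldha stood at -0.90. Gpd1, which links glycerol phosphate to glycolysis, fell by 0.60 ± 0.10 in TgSREBP-1a, under 1.5-fold without replicate 2 of wild type (-0.47). Its other probe set stood at -0.22.

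Fbp1, Slc37a4 and Pck2, also on the route to glucose, were not called in TgSREBP-1a. Their differences had the same sign as those of Pck1 and G6pc. Fbp1, fructose bisphosphatase, stood at -0.32 ± 0.09 and Slc37a4, the glucose-6-phosphate transporter that works with G6pc, at -0.34 ± 0.12, with adjusted p = 0.042 and 0.0929 in limma and both under 1.5-fold. Pck2, the mitochondrial carboxykinase, stood at -0.23. Other genes of the list went the other way. Aldoc and Tpi1 were called higher, as given above. Gapdh stood at 0.45 ± 0.09 and Pgk1 at 0.35 ± 0.09, with adjusted p = 0.00824 and 0.0287 in limma and both under 1.5-fold. Pgam2 (-0.46 ± 0.12), Eno2 (-0.28 ± 0.12) and Eno3 (-0.10 ± 0.12) had the sign of Pck1 and were not called. Pgam2 and Eno2 were dim, under 6 log2 on every array. Pklr, the pyruvate kinase of liver, stood at 0.34 ± 0.10 on its brightest probe set, while its other probe set was at 1.20 and called higher. Pkm had the same sign and was under 1.5-fold, at 0.38 ± 0.11 (adjusted p = 0.0385, limma), with its other probe set at 0.09.

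The pyruvate and malate list had 13 measured genes, of which 3 rose in TgSREBP-1a and 0 fell. Pdk1, a kinase that turns off pyruvate dehydrogenase, had 8.64 and 8.11 in TgSREBP-1a, against 6.63 and 6.33 in high-protein wild type, and rose by 1.89 ± 0.17 (adjusted p = 2.61e-05, limma). Cs, citrate synthase, rose by 1.22 ± 0.11 and Mdh2, mitochondrial malate dehydrogenase, by 0.62 ± 0.10. Mdh2 lost its call at 0.57 when replicate 1 of TgSREBP-1a was left out and at 0.55 when replicate 2 of wild type was. Dlat, a pyruvate dehydrogenase subunit, stood at -0.21 on its brightest probe set and at 1.39, called higher, on the other.

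In TgSREBP-2 limma called 0 of these 13, and 2 had an unadjusted p under 0.05. In Scap-/- it called 0, with 1 at an unadjusted p under 0.05, and Pdk1 stood at -0.69 ± 0.17 (adjusted p = 0.0755). Between the wild type pools Pdk4, a sister kinase of Pdk1, had 8.94 and 8.71 on the high-protein diet, against 6.64 and 6.56 on chow, and was higher by 2.23 ± 0.18 (adjusted p = 3.25e-05, limma). Pdhb, another subunit of the dehydrogenase, was lower, at -1.04 ± 0.15.

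The list of regulators had 27 measured genes, with 2 higher and 3 lower in TgSREBP-1a. Ppara, the fatty acid receptor PPAR alpha, fell by 1.24 ± 0.13. Cebpa, a transcription factor known to drive Pck1, had 10.51 and 10.39 in TgSREBP-1a, against 11.26 and 11.18 in high-protein wild type, and fell by 0.77 ± 0.08 (adjusted p = 7.95e-05, limma). Gcgr, the glucagon receptor, had 8.60 and 8.75 against 9.46 and 9.38 and fell by 0.74 ± 0.08.

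Igfbp1 and Tat, which like Pck1 are known to answer to glucagon and glucocorticoids, were called in the other direction. Igfbp1 had 11.04 and 10.85 in TgSREBP-1a, against 9.66 and 9.43 in high-protein wild type, and rose by 1.40 ± 0.14, while its dimmer probe set stood at -0.35. With the mean of both it was at 0.52 and no longer called. Tat, tyrosine aminotransferase, rose by 0.77 ± 0.11. In TgSREBP-2 Foxa3 alone of the 27 was called, at -0.66 ± 0.15 (adjusted p = 0.0291, limma). That call was lost without 5 of the 10 arrays in turn, with adjusted p from 0.0588 to 0.149, among them both arrays of chow-fed wild type. In Scap-/- limma called 0 of 27, with 4 at an unadjusted p under 0.05. Between the wild type pools Igfbp1 (1.33 ± 0.14), Ppara (0.97 ± 0.13) and Stat3 (0.66 ± 0.08) were higher in high-protein wild type and Nr1h3 (-0.68 ± 0.11) was lower. The dimmer probe set of Igfbp1 stood at 0.30 there (adjusted p = 0.121, limma). The other probe set of Stat3 stood at 0.42, and with the mean of its probe sets Stat3 lost its call (0.54). Nr1h3 fell short of 1.5-fold without replicate 2 of chow-fed wild type (-0.56) and when quantile normalized again (-0.58).

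Among 11 measured glycogen genes Pgm1, phosphoglucomutase, rose in TgSREBP-1a by 0.82 ± 0.10 (adjusted p = 0.000226, limma), and it stood at 0.52 ± 0.10 in TgSREBP-2. Gbe1, the glycogen branching enzyme, stood at 0.77 ± 0.26 in TgSREBP-1a (adjusted p = 0.0738, limma). Ppp1r3c went the other way, under 1.5-fold. It stood at -0.46 ± 0.09 in TgSREBP-1a and -0.48 ± 0.09 in TgSREBP-2, with adjusted p = 0.00522 and 0.0108 in limma. Besides Pgm1 none of the 11 was called in any of the 5 comparisons. Of 6 other sugar transporters limma called 0 in all 5 comparisons, with 0 to 2 at an unadjusted p under 0.05. Slc2a3 had the largest difference among them in 3 of the comparisons, up to 0.54 ± 0.10 between the wild type pools.

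**Figure D5:**
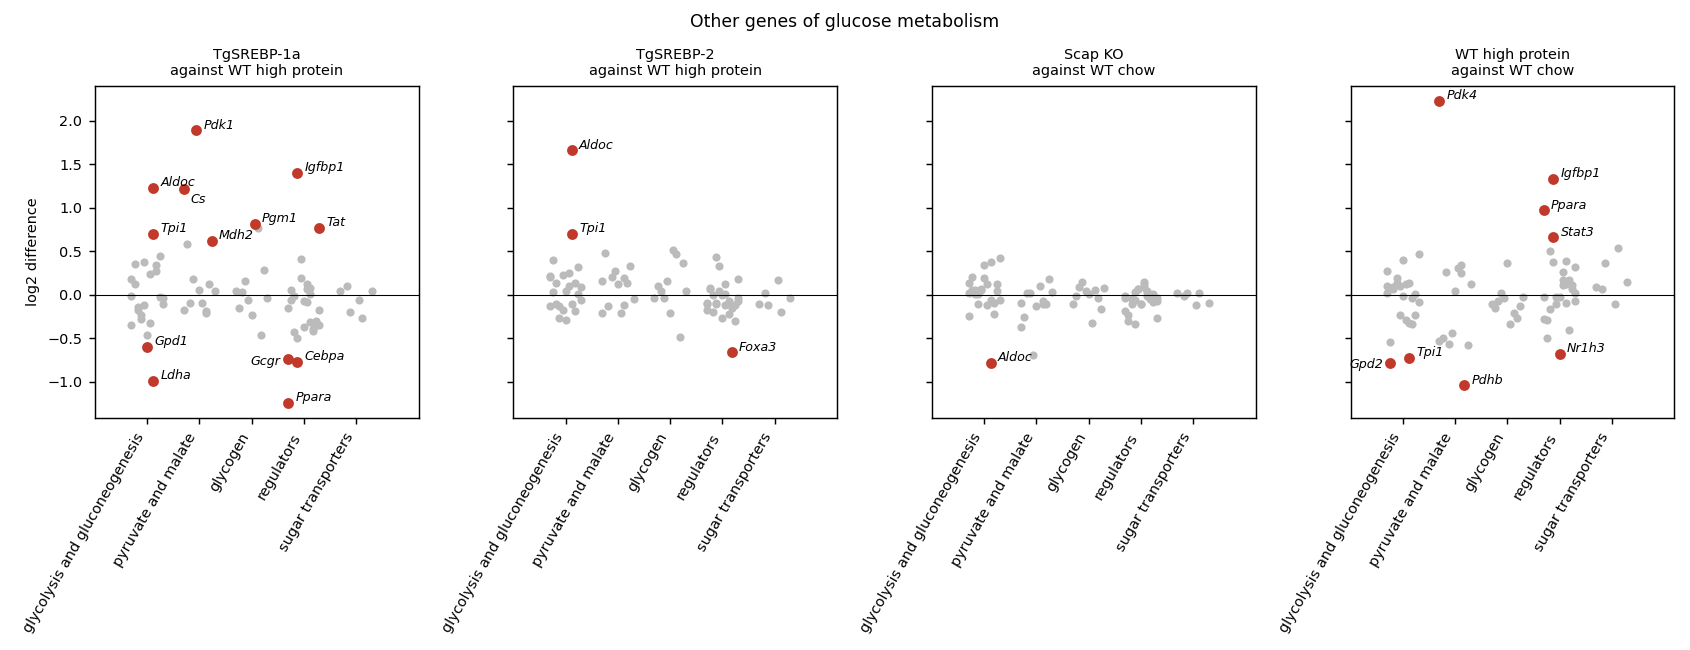
Log2 difference (vertical axis) of each gene of 5 lists (horizontal axis) in 4 comparisons, the first-named pool minus the second. Red points with names passed the limma test and grey points did not. TgSREBP-1a has 13 named genes and Scap-/- 1, Aldoc.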

How the data were processed

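Liver RNA was measured on Affymetrix MG_U74Av2 arrays, 2 for each of 5 pools. The authors deposited log2 signals of 12488 probe sets. The submitters' processing notes name RMA without a version, and the design text names Microarray Suite 5.0. Values ran from 2.68 to 14.03 with array medians of 6.37 to 6.4. Detection calls and scanner files were not used here.

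Probe sets with 1 symbol numbered 10855, of which 10839 matched RefSeq by gene ID; 396 had several and 1237 none. Of 66 control probe sets 22 had 1 symbol and were kept, and 5 genes were read from one. Each of 8252 genes was read from its brightest probe set, with a choice for 2076. A model with a coefficient for each pool, 5 residual degrees of freedom and 5 contrasts was fitted with limma 3.58.1 (R 4.3.3), after a test on simulated data. It shares 1 variance per gene over all pools, although duplicates differed more in the high-protein set.

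Members and lists were chosen with earlier results of these data known. Text names all members, list genes that were called, up to 4 with the largest difference per list and comparison, and the 3 nearest genes per member; further genes were chosen after their values were seen. Same-numbered arrays deviated together within the high-protein set (correlations of 0.46, 0.61 and 0.60) and in the chow set (0.30), but not between sets (-0.12 to -0.48), so a block was fitted within each set. What a replicate number stands for is not labelled.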

Additional observations from a re-analysis of the deposited data

Results flagged for a closer look

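The effect of a transgene against the same high-protein wild type pool differed between TgSREBP-1a and TgSREBP-2 for 4 of the 5 genes, by the direct limma test of the transgenic pools. The TgSREBP-1a effect was lower by 1.55 log2 for Pck1 (-1.55), by 1.19 for G6pc (-1.19) and by 0.75 for Pcx (-0.75). It was higher by 1.03 for Slc2a2. Markers of cell types, hepatocytes among them, differed between the same pools. In TgSREBP-1a all 7 exocrine pancreas markers, Ttr, Tdo2, Car3 and Alas2 were lower, and Marco, Lyve1, Col3a1 and Ighm were higher. Their part in these results was not tested. Groups of 2 arrays are too small for a search for outlying arrays.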

How the results depend on the processing

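Of 575 repeats of the members' 25 differences under other settings, 555 kept their direction and their side of the threshold. Pcx in TgSREBP-1a against wild type lost its call with the mean of its probe sets (-0.42) and by the probe sets 162288_f_at (-0.23), 5′ (-0.19), MA (-0.13) and MB (-0.55), and against TgSREBP-2 with the mean (-0.44) and by 162288_f_at (-0.23), 5′ (-0.08) and MA (-0.13). With control probe sets left out, an alternative chosen after seeing the data, it stood at -0.82 and -0.83, both called. Pgam1 in TgSREBP-1a lost its call when quantile normalized again (0.55) and with 32 added (0.58). Leaving out each array in turn, Pgam1 ranged from 0.55 to 0.68 there, Slc2a2 from -0.23 to 0.20 in TgSREBP-1a (0.12 without replicate 1 of wild type) and from -0.97 to -0.70 between wild type pools, where its call was lost without replicate 2 of chow-fed wild type (-0.75), and Pck1 from -0.17 to 0.07 in Scap-/-. Differences that were never called changed sign for Pcx in TgSREBP-2 when quantile normalized again (0), by 162288_f_at (0) and 5′ (-0.11), and between wild type pools by 5′ (0.08). Causes were not tested. With the replicate number as a block within each set, no call of a member changed, and 618, 229, 442, 149 and 479 genes were called in the 5 comparisons, against 608, 212, 428, 136 and 465 without it. No setting moved these counts by over 1.5 times.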
